A study of Homo sapiens with 3 samples.

Results

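Binding of HA-TFE3 was examined at 10 genes that encode lysosomal membrane and transport proteins. The genes were LAMP1, MCOLN1, CLCN7, SCARB2, NPC1, NPC2, CD63, TMEM55B, CTNS and OSTM1. They were chosen by name, with earlier results of these data known. Their summits were taken by position alone, as those inside the hg19 span of a gene or at most 5 kb outside it. The 10 windows covered 399 kb, or 0.0131% of chromosomes 1 to 22 and X. They held 35 of the 62287 summits of replicate 1 and 41 of the 72647 summits of replicate 2. Of these, 27 formed pairs, 1 from each list, that were each other's nearest and lay at most 100 bp apart, out of 47396 such shared summits on all chromosomes used.

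The series holds 2 HA-TFE3 ChIP-seq libraries and 1 input DNA library, all from HK-2 cells, an established line of human kidney proximal tubule cells that carries an HA-tagged TFE3 gene switched on by doxycycline. Chromatin was precipitated through the HA tag after culture for 24 h. The labels mention culture with or without 0.2 µg/ml doxycycline but assign neither condition to a library, so induced and uninduced cells cannot be compared. The labels do not say whether the 2 ChIP libraries were made from different cultures, so any difference between them may be purely technical. The input library entered no comparison, and no precipitation control was analysed here.

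TFE3 belongs to the MiT/TFE family of transcription factors, which dimerise through a leucine zipper. They bind the E-box CACGTG, and the family is known for control of lysosomal genes through a longer form of that E-box called the CLEAR element. Lysosomal membrane proteins seal the acidic lumen, move ions, sterols and amino acids out of it, and serve as platforms for signalling and for movement of the organelle along microtubules. In the proximal tubule, which takes up filtered protein in large amounts, lysosomes do much of the work of breakdown.

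Promoter sequences are shown for the genes whose E-boxes or scores the account turns on. They are RefSeq sequences of build GRCh38.p14, the 250 bases before an annotated start, written 5′ to 3′ on the strand of the gene, with each CACGTG in capitals. The positions are LAMP1 chr13:113296989-113297238 (+), MCOLN1 chr19:7522374-7522623 (+), CLCN7 chr16:1475029-1475278 (-), CD63 chr12:55729010-55729259 (-) and NPC2 chr14:74493513-74493762 (-). NPC2 is included because its 5′ end held the highest-scoring summits without a partner. It has 2 annotated starts, and the stretch before the first is shown.
LAMP1: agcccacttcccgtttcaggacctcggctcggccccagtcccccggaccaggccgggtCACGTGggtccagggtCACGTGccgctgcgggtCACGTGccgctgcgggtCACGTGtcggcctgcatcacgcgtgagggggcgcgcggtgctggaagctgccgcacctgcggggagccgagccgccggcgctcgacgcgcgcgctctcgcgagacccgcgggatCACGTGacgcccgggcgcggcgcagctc
MCOLN1: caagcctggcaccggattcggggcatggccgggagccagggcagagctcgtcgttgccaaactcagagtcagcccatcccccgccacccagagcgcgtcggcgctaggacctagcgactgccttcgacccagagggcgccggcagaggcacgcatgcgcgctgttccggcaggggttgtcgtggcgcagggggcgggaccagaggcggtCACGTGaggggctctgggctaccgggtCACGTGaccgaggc
CLCN7: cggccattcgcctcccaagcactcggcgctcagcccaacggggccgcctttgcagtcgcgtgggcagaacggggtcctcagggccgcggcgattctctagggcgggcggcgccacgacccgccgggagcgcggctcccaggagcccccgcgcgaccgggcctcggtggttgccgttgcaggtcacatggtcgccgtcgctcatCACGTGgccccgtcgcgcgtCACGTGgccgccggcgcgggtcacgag
CD63: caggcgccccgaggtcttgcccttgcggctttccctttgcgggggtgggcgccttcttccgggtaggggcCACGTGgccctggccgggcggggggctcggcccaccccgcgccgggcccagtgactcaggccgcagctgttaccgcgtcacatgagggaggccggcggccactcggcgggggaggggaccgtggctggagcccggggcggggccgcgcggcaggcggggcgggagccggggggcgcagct
NPC2: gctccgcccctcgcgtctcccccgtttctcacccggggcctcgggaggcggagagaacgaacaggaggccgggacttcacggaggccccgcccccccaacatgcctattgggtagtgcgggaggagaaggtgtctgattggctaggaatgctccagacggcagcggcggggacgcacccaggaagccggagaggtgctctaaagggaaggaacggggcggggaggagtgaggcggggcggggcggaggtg

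E-boxes were counted in the whole promoter windows of the RefSeq table, 250 bases before and 50 after each start, for 9 of the 10 genes. TMEM55B had no window there, so its promoter was not searched. CACGTG reads the same on both strands, as do TCACGTGA, which contains it, and the full CLEAR element, which is TCACGTGA with G before it and C after it. LAMP1 had 6 CACGTG, of which 5 lie in the stretch shown, between 28 and 192 bases before the start. MCOLN1 had 2, at 14 and 41 bases before the start, and CLCN7 had 2, at 27 and 47. CD63, which has 8 annotated starts in the table, had 1 E-box, before the third start. No CACGTG was found in the windows of SCARB2, NPC1, NPC2, CTNS and OSTM1, which says only that these letters are not in these windows. Of all 35116 RefSeq promoter windows, 7.26% held CACGTG. This share is per window, whereas the counts above are per gene, and CD63, with its 8 windows, had more chances to hold one. The 8-letter TCACGTGA occurred at LAMP1 and MCOLN1, 2 times each, against 0.980% of all windows that held it. The full CLEAR element occurred once among these 9 genes, at MCOLN1, and 0.353% of all windows held it. The summit lists are on hg19 and no hg19 sequence was used here, so the E-boxes were not placed under summits.

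The first question was at which of the genes both libraries had an HA-TFE3 summit. Shared summits were found at 9 of the 10 genes, all but CLCN7, against 32.2% of all 40 kb windows along the chromosomes, a length near the median window of 37.5 kb. The count per gene was 8 at NPC1, 6 at SCARB2, 3 at CTNS, 2 each at MCOLN1, NPC2, CD63 and TMEM55B, and 1 each at LAMP1 and OSTM1. The windows of NPC1 and SCARB2, at 91 and 66 kb, were also the longest of the 10. Together the windows had 67.7 shared summits per Mb (95% exact Poisson interval 44.6 to 98.5), against 15.6 per Mb over chromosomes 1 to 22 and X. That is 4.34-fold the genome density (2.86 to 6.31 by the same interval). For all summits of each list, shared or not, the ratio was 4.29 ± 0.0132 (SD, n = 2). The lists share most of the summits at these genes, so this SD does not measure the error of the ratio. Over the 500 kb on each side of the windows, a comparison chosen after seeing the data, shared summits occurred at 31.1 per Mb, so the windows had 2.18-fold the density of their own surroundings. The window was denser than its surroundings at the 9 genes with a shared summit and less dense at CLCN7, where the surroundings had 44.0 per Mb. At LAMP1 and OSTM1 a single shared summit was enough to make the window denser, and at OSTM1 only slightly so. Because windows this short exceed their surroundings with so few summits, the count of 9 largely restates which genes had a shared summit. It is not a separate comparison with the local background. All these intervals cover counting error only, neighbouring summits are not independent, and the genome-wide values include gene-poor sequence. The genes were also chosen with earlier results of these data known, so the comparisons are descriptions.

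**Figure D1:**
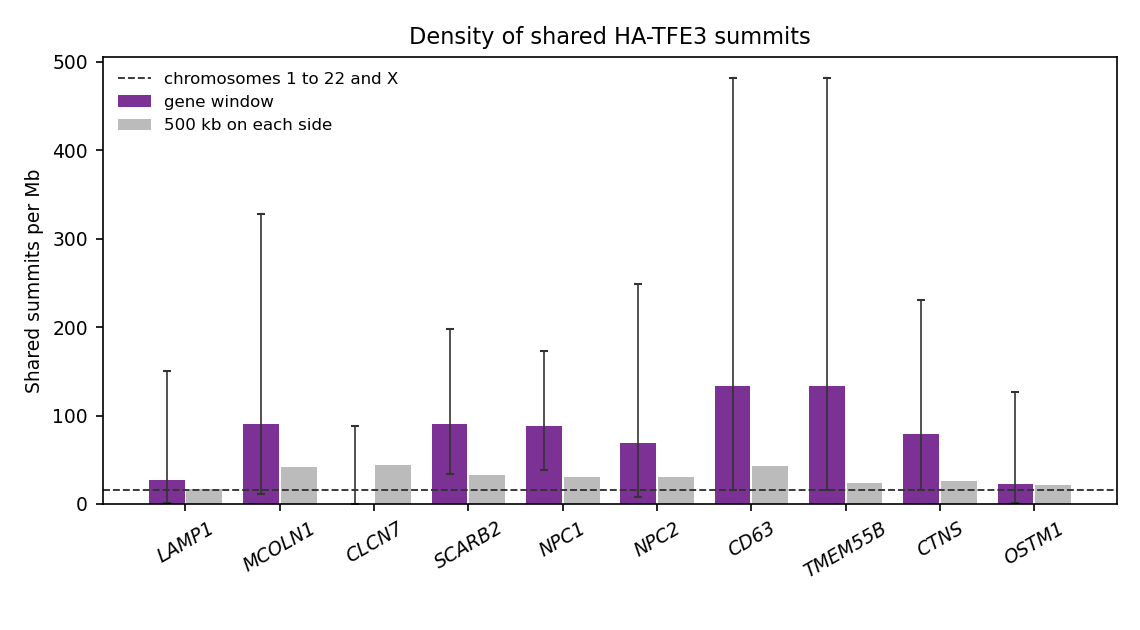
Shared HA-TFE3 summits per Mb (y axis) in the window of each gene, its span with 5 kb on each side (purple bars, with 95% exact Poisson intervals), and in the 500 kb on each side of that window (grey bars). The dashed line is the density over chromosomes 1 to 22 and X, 15.6 per Mb. CLCN7 has no purple bar because it held no shared summit, and most intervals are wide because they rest on 1 to 3 summits.

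Within the windows, shared summits were denser at the 5′ ends than elsewhere. Gene spans are known to the kb, so distances from the 5′ end of a span carry an error of up to 1 kb. Near was taken as within 2 kb. At genes with several annotated starts, such as CD63, distances from the other starts were not measured. At 8 of the 10 genes a shared summit lay near the 5′ end, against 5.40% of all 4 kb windows along the chromosomes. With a pairing limit of 500 bp NPC2 joined them, and 9 genes had one. The share at all gene starts was not measured, since no hg19 gene table was used here. The nearest shared summit of these 8 genes lay 26 to 637 bp from the 5′ end of the span, with a median of 288 bp. Whether the summits near 5′ ends belong to these genes or to neighbouring ones was not tested. The 9 shared summits near 5′ ends stood in 40 kb, or 225 per Mb, and the other 18 in 359 kb, or 50.1 per Mb. Of those 18, 13 lay farther inside the spans of 4 genes (SCARB2, NPC1, NPC2 and CTNS), and 5 lay beyond the 3′ ends of 5 genes.

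**Figure D2:**
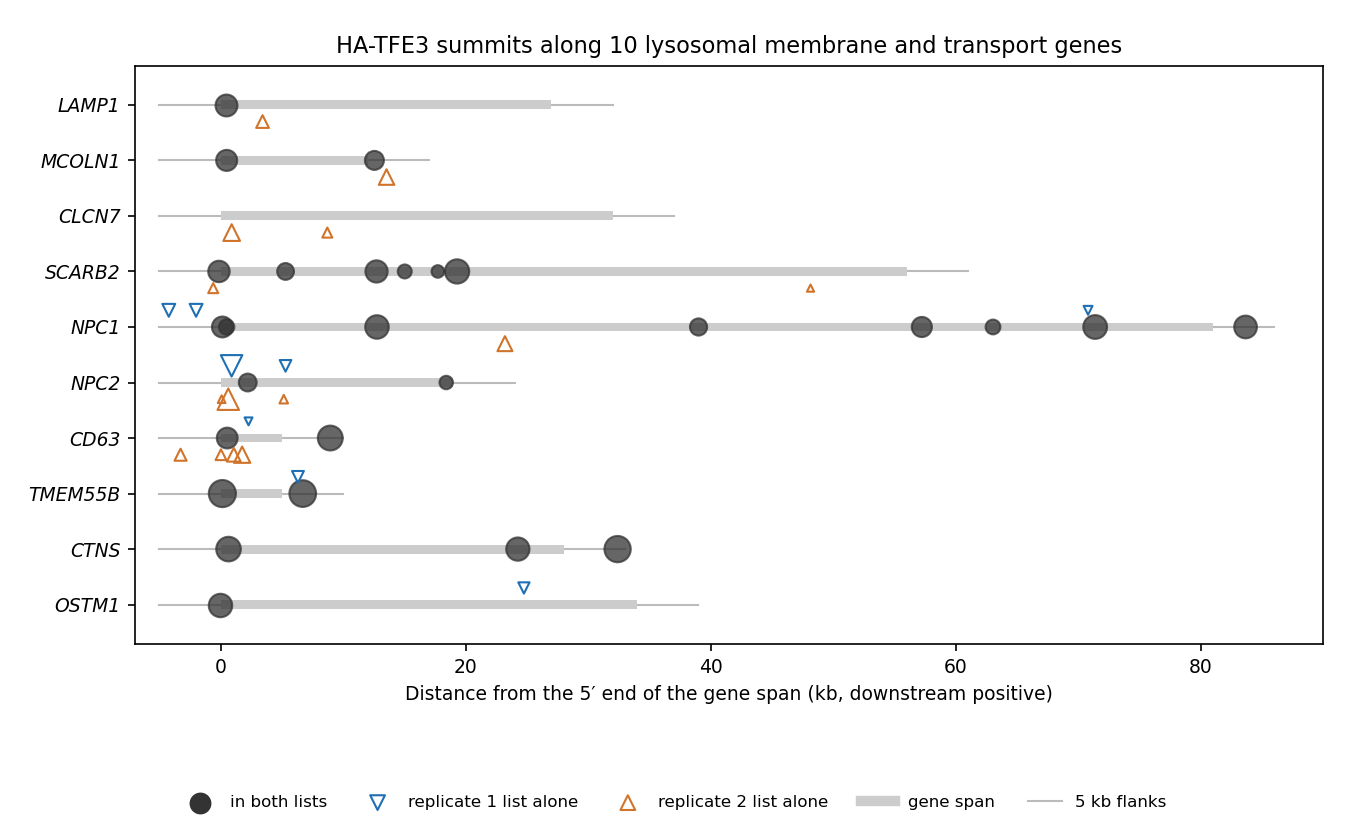
Summits along the 10 genes, by distance from the 5′ end of the gene span in kb (x axis, downstream positive). Filled circles are shared summits, open blue triangles summits of the replicate 1 list alone and open orange triangles summits of the replicate 2 list alone, and symbols grow with the score percentile. Grey bars are gene spans and thin lines the 5 kb flanks. A filled circle stands near the 5′ end of 8 genes, and CLCN7 shows 2 orange triangles alone.

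The members of the list are described by what their proteins do, and their scores are the authors' own value of each summit, used here only by rank within a list. A percentile is the rank of the summit's score, counted from the lowest, as a percentage of the summits in its list. Tied scores were given their average rank.

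TMEM55B had the strongest summit of the group. Its product, also named PIP4P1, is a lysosomal membrane protein that acts on phosphoinositides and is known to recruit the adaptor JIP4 for movement of lysosomes towards the cell centre. The summit lay at base 20929867 of chromosome 14 in replicate 1 and base 20929900 in replicate 2, in band 14q11.2 and 133 bp inside the 5′ end. It scored 64.2 in replicate 1, rank 111 of the list, and 85.8 in replicate 2, rank 22. A second shared summit lay 1.70 kb beyond the 3′ end at base 20923304, with scores of 38.1 and 37.1 and percentiles of 97.1 and 96.1. In RefSeq, APEX1 overlaps TMEM55B, OSGEP is the next coding gene downstream and PNP the next upstream. To which gene either summit belongs was not tested. Of all windows of the same 15 kb length, 4.90% held 2 or more shared summits.

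LAMP1 and SCARB2 encode abundant glycoproteins of the lysosomal membrane, and SCARB2, also named LIMP-2, is the receptor that carries glucocerebrosidase to the lysosome. LAMP1 had 1 shared summit, at base 113951431 of chromosome 13 in 13q34 and 431 bp inside the 5′ end. It scored 10.7 in replicate 1 and 12.2 in replicate 2, at percentiles of 59.8 and 65.9. Windows of the same length held at least 1 shared summit in 30.7% of cases. At SCARB2 the 6 shared summits lay from 145 bp upstream of the 5′ end to 19.3 kb inside the span, on chromosome 4 in 4q21.1. The highest of them was the innermost, at base 77115700, with scores of 15.9 and 18.5 and percentiles of 76.5 and 80.5. The summit at the 5′ end, at base 77135145, scored 11.1 and 10.6, at percentiles of 61.2 and 58.9. The other 4 had mean percentiles of 16.6 to 65.0. FAM47E overlaps SCARB2 in RefSeq, and to which gene each summit belongs was not tested. At least 6 shared summits were found in 3.18% of windows of the length of SCARB2.

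MCOLN1 and CLCN7 encode ion transporters, the calcium-permeable channel TRPML1 and the chloride-proton exchanger ClC-7, and OSTM1 is the beta subunit that ClC-7 needs for stability. MCOLN1 had a shared summit at base 7587484 of chromosome 19 in 19p13.2, 484 bp inside the 5′ end, with scores of 8.55 in replicate 1 and 12.2 in replicate 2 and percentiles of 50.1 and 65.1. A second, at base 7599548 and 548 bp beyond the 3′ end, scored 7.73 and 8.21, at percentiles of 44.7 and 46.7. PNPLA6 is the next coding gene on that side in RefSeq. At least 2 shared summits were found in 7.90% of windows of this length.

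CLCN7 differed from its partner OSTM1 in these lists. CLCN7, on chromosome 16 in 16p13.3, had 0 summits in replicate 1 and 2 in replicate 2, named here after their values were seen. One lay 893 bp inside the 5′ end at base 1525107, with a score of 9.50 and a percentile of 54.1, and the other 8.70 kb inside at base 1517297, with a percentile of 13.2. The nearest replicate 1 summits were 53906 and 46096 bp away. The summits at CLCN7 thus rested on 1 library. OSTM1, on chromosome 6 in 6q21, had 1 shared summit, at base 108396026 and 26 bp upstream of the 5′ end. It scored 10.03 in replicate 1 and 23.4 in replicate 2, at percentiles of 58.7 and 87.3. At least 1 shared summit was found in 34.1% of windows of the length of OSTM1. The difference between CLCN7 and OSTM1 was not tested.

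NPC1 and NPC2 act in sequence, NPC2 binding cholesterol in the lysosomal lumen and NPC1 passing it out through the membrane. NPC1 had 8 shared summits on chromosome 18 in 18q11.2, spread from the 5′ end to 2.68 kb beyond the 3′ end, and 2.68% of windows of its length held as many. A pair of them stood at the 5′ end, at bases 21166864 and 21166518, which are 136 and 482 bp inside it. The outer one scored 9.91 and 9.69, at percentiles of 57.2 and 56.1, and the inner one 5.80 and 5.66, at percentiles of 28.3 and 27.4. The highest-ranking summit of the gene lay far inside it, 71.4 kb from the 5′ end at base 21095602, with scores of 14.0 and 17.9 and percentiles of 71.5 and 79.1. Next came base 21154243, 12.8 kb inside, at percentiles of 65.3 and 81.9. The summit beyond the 3′ end, at base 21083323, had percentiles of 68.0 and 68.5, and RMC1 overlaps NPC1 in RefSeq. Apart from the outer summit at the 5′ end and the highest-ranking one, the NPC1 summits given by position were chosen after their values were seen.

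NPC2, on chromosome 14 in 14q24.3, had a high-scoring summit in each list that did not count as shared. In replicate 1 it lay at base 74960112, with a score of 36.4 and a percentile of 96.6, and in replicate 2 at base 74960386, with a score of 38.8 and a percentile of 96.6. They are 888 and 614 bp inside the 5′ end and 274 bp apart, beyond the limit of 100 bp and within that of 500 bp. They were the highest-scoring of the summits without a partner at any of the 10 genes, in both lists. With a limit of 500 bp NPC2 had 4 shared summits instead of 2. The 2 that did count were weak in at least 1 library. Base 74958794, 2.21 kb inside the span, had percentiles of 68.0 in replicate 1 and 11.2 in replicate 2, and base 74942589, 18.4 kb inside, had 4.08 and 35.6. SYNDIG1L overlaps NPC2 in RefSeq and ISCA2 is the next coding gene upstream. To which gene each of these summits belongs was not tested. At least 2 shared summits were found in 10.8% of windows of this length.

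CD63 encodes a tetraspanin of late endosomes, lysosomes and exosomes. Of its 2 shared summits, on chromosome 12 in 12q13.2, base 56123470 lay 530 bp inside the 5′ end and scored 9.96 and 9.50, at percentiles of 58.2 and 54.1. The other, at base 56115056 and 3.94 kb beyond the 3′ end, scored 29.5 in replicate 1 and 14.6 in replicate 2, at percentiles of 93.5 and 72.4. RDH5 overlaps CD63 in RefSeq and BLOC1S1 is the next coding gene downstream. Replicate 2 had 4 more summits at CD63 without a partner, 3 of them within 2 kb of the 5′ end. As at TMEM55B, 4.90% of windows of this length held 2 or more shared summits.

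CTNS encodes cystinosin, which exports cystine from the lysosome and whose loss causes cystinosis with early failure of the proximal tubule. All 3 summits of replicate 1 and all 3 of replicate 2 in its window, on chromosome 17 in 17p13.2, were shared, and 7.05% of windows of its length held as many. The one at the 5′ end, base 3539637 and 637 bp inside, scored 13.5 in replicate 1 and 28.6 in replicate 2, at percentiles of 70.5 and 91.7. Base 3563260, 24.3 kb inside, had percentiles of 63.0 and 80.4. The highest, base 3571404, lay 4.40 kb beyond the 3′ end, with scores of 29.6 and 30.4 and percentiles of 93.6 and 93.0. TAX1BP3 overlaps CTNS in RefSeq, with SHPK the next coding gene upstream and EMC6 the next downstream. To which gene the highest summit or the one at the 5′ end belongs was not tested. The highest, at base 3571404, was also the shared summit nearest to the 5 kb limit. Just outside the limit was another at CTNS, 5.02 kb beyond the 3′ end, with percentiles of 86.9 and 94.4.

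**Figure D3:**
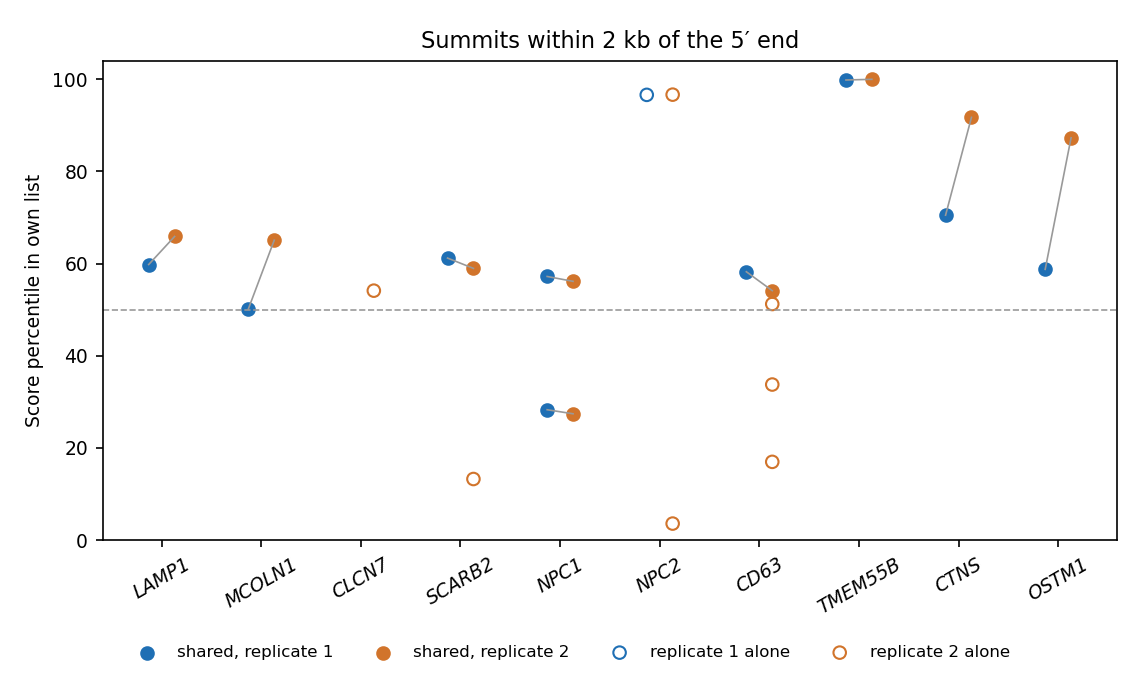
Score percentile in its own list (y axis) of each summit within 2 kb of the 5′ end, for the 10 genes in the order of the list. Filled points joined by a line are shared summits, blue in replicate 1 and orange in replicate 2, and open points are summits of 1 list alone. TMEM55B stands at 99.8 and 100.0, NPC2 has open points at 96.6 in each list, and CLCN7 has 1 open orange point at 54.1.

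The scores of the shared summits at the genes were close to those of all shared summits. The mean percentile of both lists had a median of 60.1 over the 27 shared summits (lowest 16.6, highest 99.9), against 59.5 over all 47396. In replicate 1 the median was 58.7 at the genes, against 59.1 over all shared summits, and in replicate 2 it was 65.1, against 64.3. Of the 27, 3 scored in the top 10% of both lists, 2 at TMEM55B and 1 at CTNS. That is 11.1%, against 9.11% of all shared summits. By place, the median of the mean percentile was 60.1 for the 9 summits near 5′ ends (27.8 to 99.9), 39.6 for the 13 farther inside the spans (16.6 to 78.5) and 83.0 for the 5 beyond 3′ ends (45.7 to 96.6). The ranges overlap, and these are descriptions, as summits of 1 gene share their place in the genome. Whether the 5 beyond 3′ ends belong to these genes or to neighbouring ones was not tested.

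Both libraries agreed at these genes about as often as elsewhere. Of the summits in the windows, 77.1% in replicate 1 had a partner (95% exact binomial interval 59.9 to 89.6), against 76.1% over the whole list. In replicate 2 the share was 65.9% (49.4 to 79.9), against 65.2%. The paired summits lay 2 to 70 bp apart with a median of 23 bp, against a median of 26 bp over all pairs. The closest summits that missed the limit of 100 bp were a pair at NPC2, 145 bp apart. Spearman's rank correlation of the scores between libraries was 0.740 over the 27 shared summits, against 0.729 over all, given as descriptions without a p-value. Between the lists, 8 of the 27 differed by more than 20 percentile points, as did 31.6% of all pairs. The 5′ summits of OSTM1 and CTNS were among the 5 that ranked higher in replicate 2. The others ranked higher in replicate 1, namely the CD63 summit beyond the 3′ end, the NPC2 summit 2.21 kb inside and the NPC1 summit 39.0 kb inside.

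**Figure D4:**
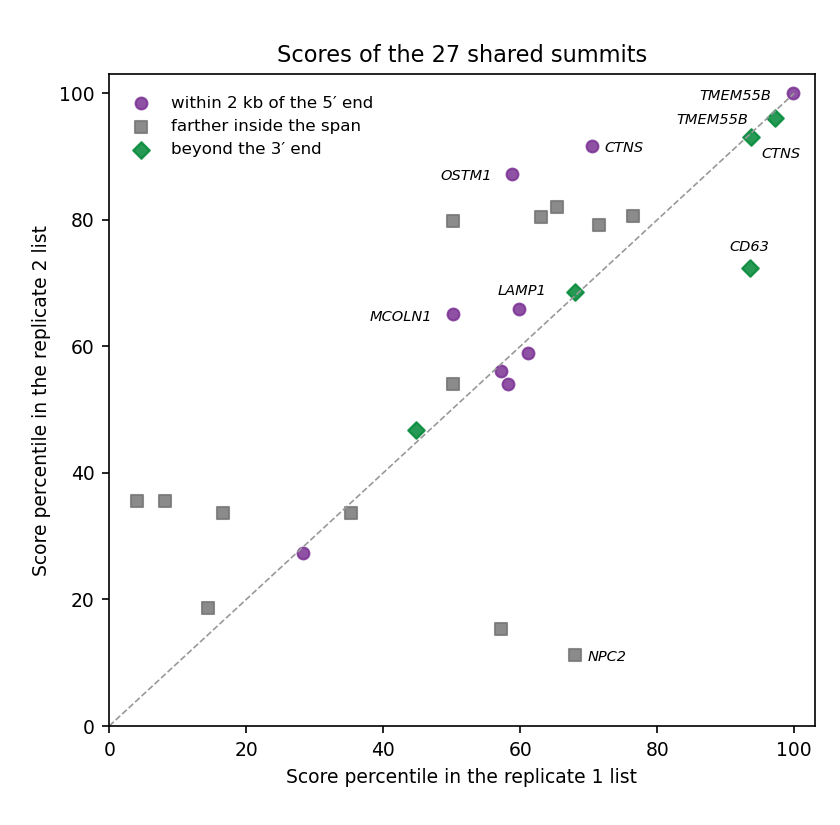
Score percentile of each of the 27 shared summits in the replicate 1 list (x axis) and in the replicate 2 list (y axis), with shape and colour by place along the gene. Points on the dashed line rank equally in both lists. The TMEM55B and CTNS summits at the upper right are in the top 10% of both lists, and the NPC2 point at the lower right has percentiles of 68.0 and 11.2.

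A further 8 summits of replicate 1 and 14 of replicate 2 in the windows had no partner. Their median percentile was 21.8 in replicate 1 (4.34 to 96.6) and 25.5 in replicate 2 (1.91 to 96.6), against 24.8 and 27.4 for all summits without a partner in those lists. Above the median score of their list stood 1 of the 8, at NPC2, and 3 of the 14, at NPC2, CLCN7 and CD63. For 6 of the 22, the other list had a summit within 500 bp.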

How the data were processed

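HA-TFE3 ChIP-seq was carried out in HK-2 cells. Samples were grouped by title into 2 ChIP replicates and 1 input library, which was not used. The authors deposited 1 summit list per ChIP library, in which each 1 bp summit has a name and a score. No source used here gives the score's scale, the aligner, the caller of summits or any use of the input. The submitters' processing notes name hg19 as the build. A caller's threshold and depth both set how many summits are listed, and depth is unknown because the lists hold no read counts.

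Positions were made 1-based and chromosomes 1 to 22 and X were kept. Summits of the lists were paired as mutual nearest within 100 bp. Gene spans, in kb, came with the list of genes. Members, lists and rules were chosen with earlier results of these data known. Genome backgrounds are windows of equal length laid end to end. Shares have exact (Clopper-Pearson) intervals and densities exact Poisson intervals, at 95%. Named summits were the highest-ranking and the one nearest the 5′ end of each gene, all summits of genes with at most 5 shared, and the highest without a partner, besides 4 further NPC1 summits, the CLCN7 summits and those just outside the flanks, named after their values were seen. Promoters came from RefSeq, GRCh38.p14, and 9 of 10 genes matched. TMEM55B was not matched. RefSeq gene order, of the same assembly, was used only to name neighbours. With no hg19 annotation or sequence used here, exons, other lysosomal membrane genes and motifs under summits were not analysed. Alternatives were pairing limits of 50, 200 and 500 bp, flanks of 0 and 10 kb, summits above the median score, the 10000 highest-scoring, each library alone, and near limits of 1 and 5 kb. Pairing and window counts were tested on simulated summits, spaced more widely than many at these genes, and the motif count on a made-up sequence. The other steps were not tested in this way. Python 3.11.15, NumPy 2.4.6, pandas 2.3.3, SciPy 1.17.1, matplotlib 3.10.9 and circlize 0.4.16, for chromosome lengths and bands, were used.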

Additional observations from a re-analysis of the deposited data

How the results depend on the processing

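The comparison with the 500 kb on each side was added after seeing the data and gave a relative density of 2.18, against 4.34 for the whole genome. The relative density was above 1 under all alternatives run. It was 4.25 and 4.26 with pairing limits of 50 and 200 bp, 4.29 and 5.14 with flanks of 0 and 10 kb, 4.81 among summits above the median score and 3.47 among the 10000 highest-scoring. With each library alone it was 4.28 to 4.29. The limit for these moves is the SD between libraries, 0.0132, which is narrow and does not measure the error of the ratio. The number of shared summits, 27, was 15 above the median score, 3 among the 10000 highest-scoring and 35 to 41 summits with each library alone. Among the 10000 highest-scoring, 2 genes had a shared summit (TMEM55B and CTNS) and 1 had it near the 5′ end (TMEM55B). With each library alone 9 to 10 genes had a summit, and 9 to 10 had it near the 5′ end. The median percentile, 60.1, was 73.6 above the median score, 96.6 among the 10000 highest-scoring, which these choices raise by construction, and 51.2 to 57.2 with each library alone. LAMP1 had no shared summit with a limit of 50 bp, and OSTM1 had none without flanks. MCOLN1 and NPC2 had none among summits above the median score, where 7 genes had one. The MCOLN1 summit near the 5′ end was dropped there because its replicate 1 score, 8.55, equals the median of that list. Among the 10000 highest-scoring, the 7 genes besides TMEM55B and CTNS that had one lost it. Of 90 counts per gene under the alternatives, 62 stayed within 1.5 times, 9 moved up and 19 down. No paired analysis was possible because the series has 1 ChIP group and no test between groups. Depth is unknown, so a gene without a summit in a list is not shown to lack binding.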

Other observations

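Of the summits at the 10 genes, the 5 beyond 3′ ends included some of the highest-ranking. They lie towards or within other coding genes named above for RefSeq, and to which gene they belong was not tested. With flanks of 10 kb in place of 5 kb the number of shared summits at CD63 was 7 in place of 2, and at TMEM55B 4 in place of 2. The added CD63 summits lay 7.10 to 9.16 kb outside the span, at mean percentiles of 37.4 to 80.7. At NPC1 the added summit lay 6.92 kb upstream of the 5′ end, at base 21173923, with percentiles of 80.3 in replicate 1 and 94.2 in replicate 2, above those of every shared summit inside the NPC1 window in both lists.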
